A study of Rattus norvegicus with 6 samples.

Results

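The transcripts of undosed young rat liver were described from the 3 corn oil control livers, 3 of the 6 samples of the series. These livers came from male Wistar Hannover rats, 1 liver per array, that were bought at 4 weeks of age, quarantined for 1 week and then given corn oil alone (0 mg/kg of test compound per day) by oral gavage for 7 days. The samples are biological replicates by their labels, which also number the rats 1 to 3. No genetic change and no other agent is named for them. The other 3 livers of the series were dosed with a test compound and enter no value given here. Total RNA (100 ng) was turned into Cy3-labelled cRNA and measured on single-colour Agilent arrays that carry 30367 different rat probes.

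Liver is built mainly of hepatocytes. They secrete most plasma proteins, make and release glucose, convert ammonia to urea, make bile acids, and oxidise and conjugate foreign compounds. Hepatocytes share the tissue with Kupffer cells (resident macrophages), sinusoidal endothelium, stellate cells, bile duct cells and blood. Whole tissue RNA mixes all of these, and in such samples fewer cells of a type and less RNA per cell cannot be told apart.

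A level is given here as the log2 of the processed signal of a probe over the 75th percentile of the signals on the same array, so 0 is the brightness of that percentile and each step of 1 is a 2-fold step. Values are means ± SD over the 3 rats (n = 3) unless a value per rat is given. A probe was called detected where the scanner software marked it well above background on all 3 arrays. This held for 18196 of 30367 probes (59.9%), while 9682 probes passed on 0 arrays, 1498 on 1 array and 991 on 2 arrays. Over genes with a symbol, 9991 of 15168 (65.9%) were detected, and a gene with several detected probes was given the level of the brightest. With 1 group there is no comparison to test, and the spread over the 3 rats is the error of each value.

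Brightness depends on the probe as well as on the transcript. Among the 1415 genes with 2 detected probes, the probes of the same gene differed by a median of 1.85 (3.60-fold), and 10% of these genes had a gap above 4.84 (28.6-fold). Wide gaps were in Mmp15 at 9.77, Gnas at 9.44, Ndufab1 at 8.93 and Gcn1 at 8.77. These gaps are the yardstick for differences between genes below, and a ranking of genes is a ranking of their brightest probes. Within a family, neighbouring genes are called apart if their ranges over the 3 rats did not overlap.

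The 3 arrays resembled each other closely. The 75th percentile of the raw signal was 678, 758 and 633 on the arrays of rats 1 to 3, 65.5% to 68.9% of spots passed as well above background, and 0 spots were saturated. All 3 arrays lay on 1 slide. Levels of detected probes correlated at 0.993 to 0.994 between arrays (Pearson, across probes, which are not independent replicates). Per the file headers, the spiked-in control RNAs followed their known concentrations with slopes of 0.979 to 1.03 on the log scale.

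The brightest named transcripts were those of secreted and carrier proteins. Apoe, the apolipoprotein that directs lipoprotein remnants to receptors, was the highest, with levels of 9.10, 9.05 and 9.09 in rats 1 to 3. Ttr, the thyroxine carrier transthyretin, followed at 9.07, 8.97 and 8.82. Hp, the haemoglobin scavenger haptoglobin, was at 8.96, 8.83 and 8.99. The rats lay within 1.19-fold of each other for each of these genes, and the range of Ttr overlapped with those of both other genes. Alb, the gene of serum albumin, had rank 23 by its 1 probe, at 8.47, 8.30 and 8.28. That rank describes the probe, since the distance from Apoe to Alb is smaller than the median gap between probes of 1 gene.

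Of the 30 highest genes, 12 belonged to the lists of apolipoproteins, serpins, clotting, complement, acute-phase and iron handling proteins, and so did 31 of the 100 highest. Apart from those already named, the 30 included the iron carrier transferrin Tf (8.80 ± 0.08), the ferritin light chain Ftl1 (8.88 ± 0.02), the retinol carrier Rbp4 (8.75 ± 0.14), the plasma protein precursor Ambp (8.88 ± 0.09) and the fibrinogen chain Fgb (8.61 ± 0.06). The complement component C3 (8.58 ± 0.10), prothrombin F2 (8.31 ± 0.07) and the small apolipoproteins Apoc1 (8.75 ± 0.06) and Apoc3 (8.64 ± 0.07) were also among them. So were the acute-phase protein Itih4 (8.65 ± 0.08) and the protease inhibitors Serpina1 (8.13 ± 0.13), Serpinc1 (8.11 ± 0.04), Mug1 (8.57 ± 0.03) and Mug1l1 (8.28 ± 0.10). A further block was of lipocalins and other small secreted proteins that male rats pass into urine: Obp3 (8.94 ± 0.07), Mup4l4 (8.64 ± 0.03), Mup5 (8.63 ± 0.04), Mup4l1 (8.59 ± 0.06) and Rup2 (8.61 ± 0.05). The major urinary protein genes are near copies of each other, as are Mug1 and Mug1l1, and a probe of one may take up transcripts of another, so their separate levels are uncertain.

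The genes of the top 30 that do not encode plasma or urinary proteins act inside the cell, as hormones or in blood cells. Fabp1, the liver fatty acid binding protein, was at 8.79, 8.68 and 8.83. Mt1, a metal-binding metallothionein, had the widest range of the 30, with levels of 8.28, 8.65 and 8.25. Rat 2 was the highest for Mt1 and also for Mt2A, a related metallothionein in the list of genes that answer fasting and stress hormones (7.72, 8.24 and 7.56). The gluconeogenic enzyme Fbp1 (8.07 ± 0.12), the ribosomal protein gene Rpl41 (8.37 ± 0.10) and the haemoglobin gene Hba-a1 (8.61 ± 0.13) belonged to this block. Igf1, the growth factor that liver releases under growth hormone, belonged to it as well, at 8.22, 8.22 and 8.34.

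**Figure D1:**
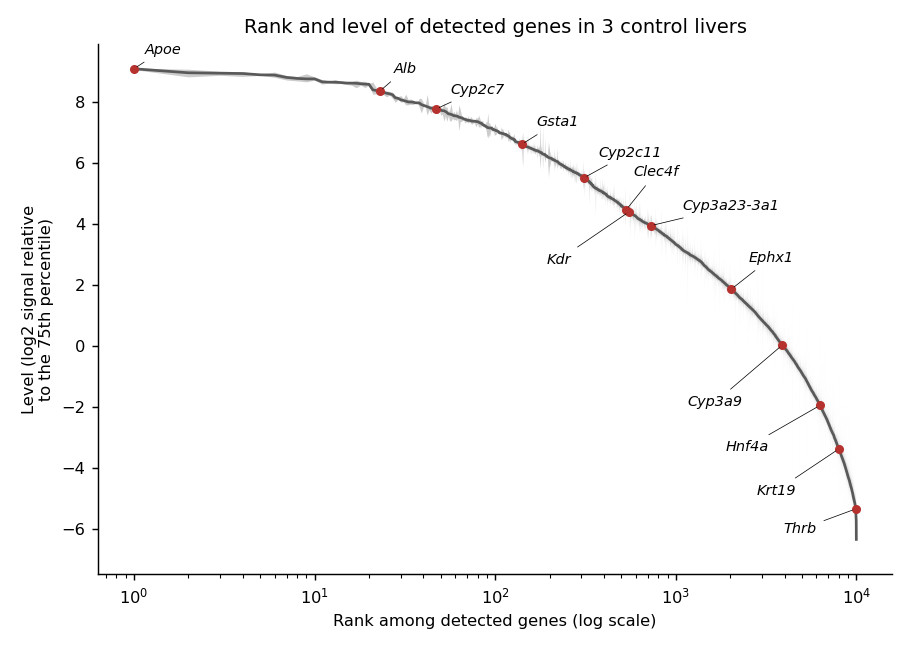
Level of each of the 9991 detected genes (y axis, log2 signal relative to the 75th percentile of the array, mean over 3 rats as a line, range over the rats as a grey band) against its rank (x axis, log scale), with genes of the described lists marked by points. The curve starts at Apoe at 9.08, is at 8.07 at rank 30 and at 7.07 at rank 100, and drops steeply over the last ranks.

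To see whether the brightest genes share a core promoter element, the bases before the annotated start of transcription were read from RefSeq's promoter table (build GRCr8). The TATA box, to which the general transcription machinery binds, was searched as the letters TATAAA on the gene's strand between 40 and 19 bases before the start. It was found in 16 of the 100 highest genes that have a promoter in the table (16%), in 4.5% of the next 200 genes by rank, in 2% of the next 700 and in 1.26% of the 7207 genes below. The share was 1.73% over all 19005 protein-coding promoters of the table and 2.44% over the 4181 genes that were not detected. The letters GGGCGG on either strand, the core of a GC box, stood in 32% of the promoters of the 100 highest genes, in 59.4% of those of detected genes beyond rank 1000, in 29.2% of those of genes not detected and in 43.1% of all promoters. A match of letters describes the window and shows no binding of a factor. The sequences that follow are the 100 bases before the start, with the matching letters in capitals, of 3 near-copied urinary protein genes, of Fabp1 and of Mt1. They lie at chr5:79640676-79640775 (minus strand) for Obp3, chr5:80226535-80226634 (minus strand) for Mup4l1, chr5:80318373-80318472 (minus strand) for Mup4l3, chr4:104749240-104749339 (plus strand) for Fabp1 and chr19:10832976-10833075 (minus strand) for Mt1, and each is written 5′ to 3′ in the direction of its gene.
Obp3: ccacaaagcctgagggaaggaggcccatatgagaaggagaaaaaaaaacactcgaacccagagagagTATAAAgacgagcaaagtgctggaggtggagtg
Mup4l1: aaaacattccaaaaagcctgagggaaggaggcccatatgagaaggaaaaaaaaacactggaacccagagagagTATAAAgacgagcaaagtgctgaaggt
Mup4l3: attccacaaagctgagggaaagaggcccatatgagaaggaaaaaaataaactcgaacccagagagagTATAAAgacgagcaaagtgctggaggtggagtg
Fabp1: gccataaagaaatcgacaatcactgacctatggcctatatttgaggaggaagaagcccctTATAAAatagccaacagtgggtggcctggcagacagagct
Mt1: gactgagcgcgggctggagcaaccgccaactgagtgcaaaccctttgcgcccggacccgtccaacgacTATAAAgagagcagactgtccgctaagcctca

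The first base of TATAAA lay 33 bases before the start in Obp3 and Mup4l3, 27 before it in Mup4l1, 40 in Fabp1 and 32 in Mt1. The urinary protein promoters shown resembled each other beyond these letters. Mup4l1 and Mup4l3, with a shift of 6 bases, shared 83 of 94 bases, and Obp3 and Mup4l3 shared 71 of 100 with a shift of 0. Such near copies count as separate genes in the 16 with the letters. The urinary protein genes Mup4l4, Mup5 and Rup2 were not among the 16. Fabp1 and Mt1 shared at best 31 of 97 bases. Mup4l3, at a level of 7.88 and rank 40, was chosen after its value was seen. The 16 genes with the letters also included the haemoglobin genes Hba-a1 (8.61) and Hbb-b1 (7.74), Mt2A (7.84) and the acute-phase gene Itih3 (7.79). Further ones were the cytochrome P450 gene Cyp2c7 (7.76) and the apolipoproteins Apoa5 (7.54) and Apoc2 (7.39). The rest of the 16 were the ribosomal protein gene Rplp0 (7.87), Sod1 (7.78), Bhmt (7.49) and Ppia (7.44).

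Detected probes spanned a wide range of brightness, and a small share of all probes carried most of the signal. The highest detected probe was at 9.35 and the lowest at -6.53, a span of 15.9 on the log2 scale. From the 1st to the 99th percentile, levels ran from -5.32 to 7.04, a span of 12.4 (5250-fold), and the median gene was at -0.89. This span is set in part by the background correction, and with normexp in place of the scanner's own it was 10.1. The 10 brightest probes of an array carried 4.15% ± 0.198 of the summed signal of all its probes, detected or not. The 100 brightest carried 24.1% ± 0.346 and the 1000 brightest 70.7% ± 0.343. The most concentrated spike-in reached 9.07 to 9.11 on the 3 arrays, and 4 detected probes per array lay above it. Among the 30 brightest probes, 12 carried no gene symbol, as did 38 of the 100 brightest, so the named ranking leaves out part of the top.

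Groups of genes took unequal shares of the signal of named genes. Ribosomal proteins had 73 of 74 genes detected (65.9% over all genes), a median level of 6.11 and 8.94% ± 0.248 of the signal. The 18 acute-phase genes, all 18 detected, held 4.50% ± 0.137 with a median of 7.25. Apolipoproteins, with 15 of 16 detected, held 4.03% ± 0.00906 with a median of 7.17. Subunits of the mitochondrial respiratory chain had 25 of 27 genes detected and a median of 4.25, and the proteasome, the main protein-degrading machine of the cell, 37 of 38 with a median of 2.72. The median of each of these 5 groups lay above the -0.89 of all detected genes.

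Cytochromes P450 are haem enzymes, and those of families 1 to 4 oxidise drugs, steroids and fatty acids in liver. Of 51 genes of these families with a probe, 42 were detected (65.9% over all genes), with a median level of 3.69. They held 3.46% ± 0.0984 of the signal of named genes, 16 of them lay above level 5, and 9 P450 genes were among the 100 highest of all. The 5 highest were Cyp2c7, Cyp2d5, Cyp4a2, Cyp2d1 and Cyp3a2. Cyp2c7, a steroid and retinoid hydroxylase, was at 7.80, 7.67 and 7.82. Cyp2d5 was at 7.72, 7.74 and 7.74, a range of 1.02-fold. Cyp4a2, a fatty acid omega-hydroxylase under PPARα, was at 7.78, 7.97 and 7.37, so that its range covered those of the 2 genes before it. The differences among these 5 genes are smaller than the median gap between probes of 1 gene, and their order cannot be read as an order of transcripts.

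Within the 2C subfamily, all 7 genes were detected and fell into 2 blocks. Cyp2c7 (7.76 ± 0.08), Cyp2c23 (7.14 ± 0.25), Cyp2c6v1 (6.90 ± 0.09), Cyp2c13 (6.61 ± 0.19) and Cyp2c11 (5.50 ± 0.33) were bright. Cyp2c11, the main male-specific testosterone hydroxylase of adult rat liver, was at 5.79, 5.57 and 5.15. The next gene, Cyp2c22 (-0.16 ± 0.56), lay 5.66 ± 0.27 below Cyp2c11, a 50.6-fold step that is wider than 90% of gaps between probes of 1 gene. Cyp2c12, the female-specific steroid sulfate hydroxylase of adult rats, was the lowest at -0.81, -0.01 and -0.37, and it was not apart from Cyp2c22.

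The 3A subfamily, whose members oxidise steroids and many drugs, had a similar step. Cyp3a2, male-predominant in adult rats, was at 7.62, 7.47 and 7.61. Cyp3a23-3a1, the member most known for induction through the pregnane X receptor, was at 3.54, 4.14 and 4.14 in these undosed livers, with rat 1 the lowest. Cyp3a18 was at 4.14, 3.98 and 3.64. Cyp3a2 exceeded Cyp3a23-3a1 by 3.63 ± 0.40 (12.4-fold) on each array, which is above the median gap between probes but below the 90th percentile, and Cyp3a23-3a1 and Cyp3a18 were not apart. Cyp3a9 (0.02 ± 0.50) lay 3.90 ± 0.57 below Cyp3a18, and Cyp3a62 (-0.32 ± 0.21) was not apart from Cyp3a9.

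In the 2D subfamily, Cyp2d5 (7.73 ± 0.01) and Cyp2d1 (7.61 ± 0.07) stood at least 3.46 ± 0.04 above Cyp2d2 (4.15 ± 0.03), and Cyp2d4 (3.08 ± 0.11) and Cyp2d3 (3.02 ± 0.15) were not apart. Among 2A, 2B and related genes, Cyp2b3 (7.37 ± 0.11) was 15.0-fold above the next, Cyp2a2 (3.46 ± 0.24). Cyp2b2, a barbiturate-inducible member, was at 2.52, 2.95 and 2.09. Cyp2e1, the ethanol-oxidising P450, was at 7.08 ± 0.17, and Cyp2j4 (4.44 ± 0.13) and Cyp2j3 (2.99 ± 0.15) lay below it. Of the fatty acid hydroxylases of family 4, Cyp4a2 (7.71 ± 0.31) and Cyp4a3 (7.30 ± 0.15) were not apart, followed by Cyp4f1 (6.49 ± 0.04), Cyp4a1 (6.09 ± 0.15) and Cyp4f4 (5.25 ± 0.08). P450 genes within a subfamily share long stretches of sequence, and where a probe takes up a related transcript its level is uncertain.

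A further 9 genes of families 1 to 4 were not detected on all 3 arrays. In family 1, Cyp1a2, the hepatic caffeine demethylase, was at 5.45, 5.58 and 5.34. Cyp1a1 and Cyp1b1, which respond to dioxin-like compounds, passed background on 0 arrays. The others were Cyp2a3, Cyp2g1, Cyp2b12, Cyp2b15, Cyp2j10, Cyp4x1 and Cyp4f18, of which Cyp2b15 and Cyp2j10 passed on 2 arrays each. P450s of sterol, bile acid, retinoid and vitamin D metabolism were dimmer as a group, with 13 of 17 detected (65.9% over all genes) and a median of -1.75. Cyp8b1, the 12-alpha-hydroxylase of cholic acid synthesis, was the highest at 3.40 ± 0.46, with rat 3 above the others, and it was not apart from the steroid hydroxylase gene Cyp17a1 (3.15 ± 0.12). Cyp7a1, the rate-limiting enzyme of bile acid synthesis, was near the lower end of detection at -5.59, -4.67 and -3.92, a 3.18-fold range with rat 3 the highest. The adrenal enzymes Cyp11a1, Cyp11b1 and Cyp11b2 and the vitamin D enzyme Cyp24a1 were not detected.

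**Figure D2:**
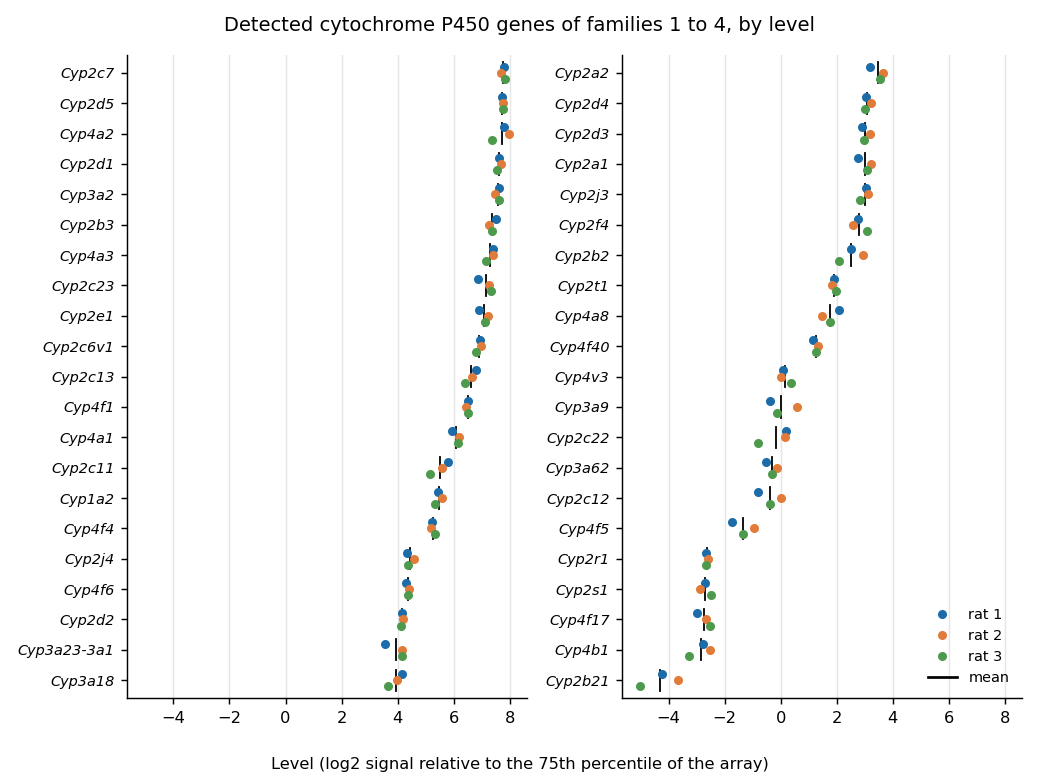
Levels of the 42 detected P450 genes of families 1 to 4 (x axis, log2 signal relative to the 75th percentile of the array, in order of mean level from the top of the left panel to the foot of the right one), with 1 point per rat and a black bar at the mean. The 16 genes from Cyp2c7 at 7.76 to Cyp4f4 at 5.25 lie above level 5, and the points of the 3 rats spread most for Cyp2b21 (SD 0.67) and Cyp2c22 (SD 0.56).

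The conjugating enzymes join glutathione, glucuronic acid or sulfate to foreign and endogenous compounds. Glutathione S-transferases had 25 of 26 genes detected (65.9% over all genes), with a median of 2.82. Gsta1, an alpha-class enzyme, was the highest at 6.57, 6.65 and 6.58, apart from the microsomal enzyme Mgst1 (6.02 ± 0.08). Gstz1 (5.74 ± 0.13) and Gstp3 (5.67 ± 0.35) followed and were not apart from each other. The UDP glucuronosyltransferases had 9 of 12 detected: Ugt2b15 (6.60, 6.45 and 6.13) and Ugt1a6 (6.22, 6.58 and 6.20) overlapped, and which of them was higher changed with the background correction. Ugt2b, at 5.70, 5.58 and 4.25, had rat 3 2.73-fold below rat 1. Transcripts of the Ugt1a locus share their last exons, so a probe there may not tell them apart. Among sulfotransferases, Sult2a1 (6.52 ± 0.35) was highest, ahead of Sult1b1 (5.76 ± 0.27) and Sult1a1 (5.73 ± 0.25), which were not apart.

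Other enzymes of foreign compound metabolism had 1 or a few bright members each. Of 13 detected carboxylesterases of 14, Ces1c, known as an esterase of rodent plasma, was at 7.33, 7.43 and 7.33, and Ces1d (6.16 ± 0.22) lay 2.30-fold below it. With the median of a gene's probes in place of the brightest, Ces1d was the higher. Adh1c, the classical ethanol dehydrogenase, was at 6.99, 6.82 and 6.80, and Adh5, the formaldehyde-glutathione dehydrogenase, was at 4.81 ± 0.03, a step of 2.06 ± 0.11. Aldh2, the mitochondrial acetaldehyde dehydrogenase (5.79 ± 0.12), and Aldh3a2 (5.68 ± 0.16) were not apart. The aldo-keto reductases were led by Akr1c12 (5.21 ± 0.04). In the same family Akr1b7 was at 0.72, 1.03 and 2.98, a 4.77-fold range in which rat 3 stood above the others. The microsomal epoxide hydrolase Ephx1 was at 1.66, 2.24 and 1.66, and the soluble Ephx2 at 1.14 ± 0.03.

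Transporter families had lower medians than the conjugating enzymes. Of 14 organic anion transporters of the Slco family, 7 were detected (65.9% over all genes), with a median of 0.27. Slco1b2, a sinusoidal uptake transporter, was the highest at 4.33, 4.37 and 4.36, and lay 2.60-fold above Slco1a4 (2.98 ± 0.44). In the Slc10 and Slc22 families, 15 of 25 were detected with a median of -0.89. Slc22a18 had the highest mean at 5.60 ± 0.07, and the bile salt uptake transporter Slc10a1 was at 4.97, 4.88 and 4.61. Among export pumps of the ABC families B, C and G, 22 of 28 were detected with a median of -1.18. Abcc2, the canalicular pump for conjugates, was the highest at 4.18, 4.23 and 4.45, followed by Abcc6 (2.69 ± 0.11), Abcb1b (2.61 ± 0.13) and the bile salt export pump Abcb11 (1.85 ± 0.12). Abcg8, partner of the sterol transporter Abcg5, and Abcc3 were not detected.

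Nuclear receptors, the ligand-gated transcription factors that control many of these enzymes, had 30 of 37 genes detected (65.9% over all genes). Their median of -0.86 was near that of all detected genes. Nr1i2, the pregnane X receptor, was the highest at 4.59, 4.58 and 4.51. Nr0b2, the bile acid-responsive repressor SHP, was at 5.06, 3.50 and 4.56, so its range covered that of Nr1i2, and without rat 2 its mean was the higher. The oxysterol receptor Nr1h3 was at 4.24 ± 0.12, the bile acid receptor Nr1h4 at 3.77 ± 0.19 and the constitutive androstane receptor Nr1i3 at 1.49, 1.48 and 0.47. The oestrogen receptors Esr1 and Esr2 were not detected. Among other transcription factors of liver, all 25 on the list were detected, led by the membrane-bound factor Creb3l3 (6.54 ± 0.02).

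Many metabolic steps have 1 form that is typical of liver and others typical of muscle, brain or dividing cells. Of 22 such sets, 20 had at least 2 detected members. In 17 of the 20 the highest member was apart from the next, in 14 the step was above the median gap between probes, and in 10 above the 90th percentile of that gap. Over all 382 pairs of neighbouring genes in the families and sets, 194 were apart, 57 had a gap above that median and 16 above that percentile. Fbp1, the liver fructose bisphosphatase (7.99, 8.00 and 8.21), stood 8.94 ± 0.20 above the muscle form Fbp2 (-0.88 ± 0.13). The catalytic subunit of glucose 6-phosphatase, G6pc1, was at 6.54, 6.27 and 6.63 and stood 9.76 ± 0.24 above the widely expressed G6pc3 (-3.28 ± 0.15).

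The same pattern held in glycogen, methionine, arginine and lipid steps. The liver glycogen synthase Gys2 (4.90 ± 0.05) was 89.3-fold above Gys1 (-1.58 ± 0.09), and the liver phosphorylase Pygl (1.83 ± 0.17) 44.8-fold above the brain form Pygb (-3.66 ± 0.09). Mat1a, which makes S-adenosylmethionine in adult liver, was at 7.35, 7.75 and 7.36 and lay 10.8 ± 0.37 above Mat2a (-3.35 ± 0.28), the form of dividing and non-hepatic cells. The urea cycle arginase Arg1 was at 6.75, 6.91 and 6.70, while Arg2 passed background on 0 arrays. Acsl1 (7.71 ± 0.10), the main acyl-CoA synthetase of liver, stood 5.16 ± 0.42 above Acsl5 (2.54 ± 0.35). Pck1 (5.09 ± 0.07), the cytosolic enzyme of gluconeogenesis, stood 23.0-fold above the mitochondrial Pck2 (0.56 ± 0.08).

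Phosphofructokinase did not show such a step. The phosphofructokinases Pfkp (-0.90 ± 0.07) and Pfkl (-1.09 ± 0.08) differed by 0.19 ± 0.06, although Pfkl is known as the liver form. Cpt2 (3.89 ± 0.13) and Cpt1a (3.85 ± 0.13) were not apart, but they act in turn in carnitine-dependent fatty acid import and are not forms of the same step. While Cpt1a lay 0.04 ± 0.01 below Cpt2, the other Cpt1 genes lay further below it, Cpt1b by 2.58 ± 0.11 and Cpt1c by 7.46 ± 0.18. In pyruvate kinase, the liver form Pklr (0.79 ± 0.37) was 10.4-fold above Pkm (-2.59 ± 0.09). In lactate dehydrogenase, Ldha, the form that liver shares with muscle, was at 7.87, 7.64 and 7.86, and Ldhb, the heart form, at -2.26, -0.89 and -0.86, with rat 1 the lowest.

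**Figure D3:**
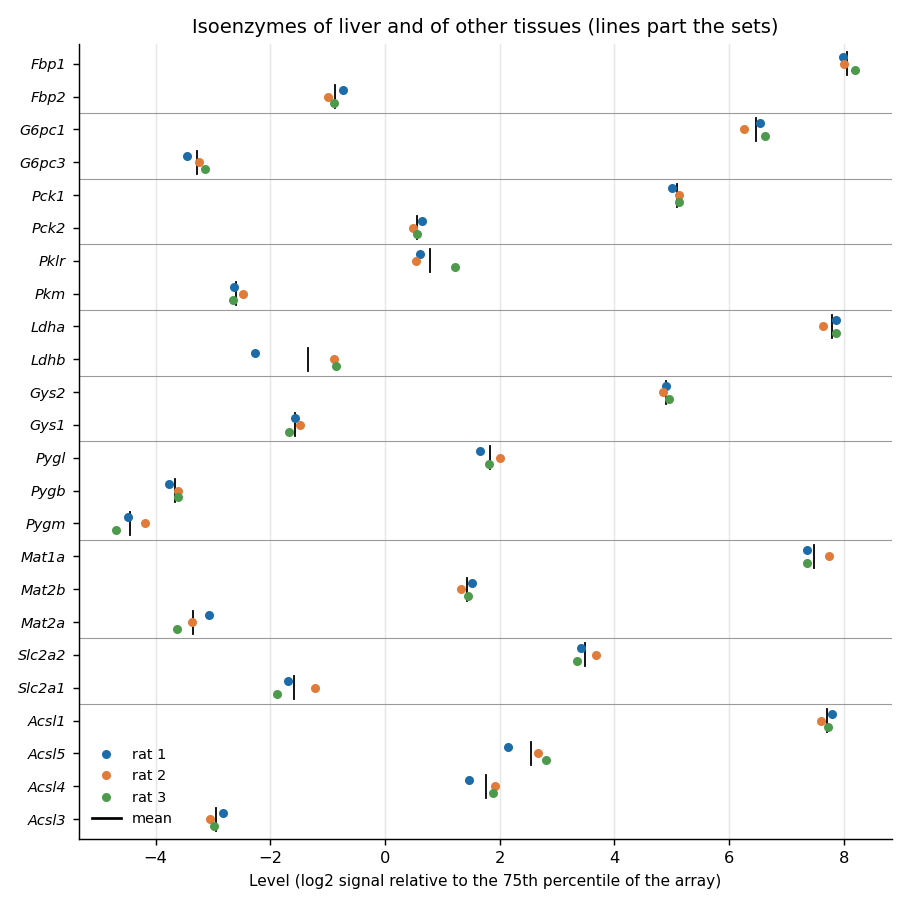
Levels of isoenzymes in 10 metabolic sets divided by grey lines (x axis, log2 signal relative to the 75th percentile of the array), with 1 point per rat and a black bar at the mean. The sets drawn are a selection from the 22: each has a step above the median gap between probes, and the sets without such a step are left out. In most of the sets drawn the liver form lies far to the right of the others, as Fbp1 at 8.07 against Fbp2 at -0.88. The pyruvate kinases Pklr at 0.79 and Pkm at -2.59 lie closer together.

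Of 19 clotting genes on the list, 16 had a probe, and all 16 were detected, with a median of 5.18, from Fgb at 8.61 to F8, the factor made mainly by endothelium, at -3.32 ± 0.09. Of 24 complement genes, 20 had a probe and all 20 were detected, with a median of 4.21: C3 led, then Cfb (7.97, 7.96 and 7.97), C4a (7.37 ± 0.07) and Cfi (7.09 ± 0.07), and the lowest was Cfd (1.97 ± 0.18). Of the 18 acute-phase genes, genes whose level is known to change in inflamed liver, all were detected, and 3 differed by over 2-fold between rats (4.07% over all detected genes). Orm1 was at 4.79, 3.69 and 3.99, Lbp at 0.45, 1.79 and 1.39, and A2m, the classical rat acute-phase macroglobulin, at -0.20, 0.63 and -0.89. No rat was the highest for all 3. The other 15 stayed within 2-fold, among them Hp (8.93 ± 0.08) and Itih4 (8.65 ± 0.08). Lcn2 (-2.28 ± 0.03) was the lowest of the list. The iron hormone Hamp was at 5.90 ± 0.18.

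Urea cycle and bile acid genes were uneven within their pathways. In the urea cycle, Arg1 (6.78 ± 0.11), Asl (6.60 ± 0.40) and Ass1 (5.69 ± 0.31) were bright, while Otc (2.68 ± 0.13) and Cps1, the first enzyme of the cycle, at 0.72, 1.16 and 1.46 were dim. Cps1, Otc and Asl have 1 detected probe each. All 14 bile acid genes were detected, with a median of 2.94, from the sterol carrier Scp2 (7.96 ± 0.15), the bile acid CoA ligase Slc27a5 (7.38 ± 0.12) and the conjugating enzyme Baat (6.28 ± 0.08) down to Cyp7a1 (-4.73 ± 0.84).

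The labelled tissue was checked against markers of its cells. All 12 hepatocyte markers were detected, with a median of 7.34, led by Ttr and Tf. The lowest were Tat, the tyrosine aminotransferase (-0.11 ± 0.28), and the transcription factor Hnf4a (-1.95 ± 0.13). Of the 84 markers of other cell types with a probe, 64 were detected (65.9% over all genes). Kupffer cell and macrophage markers were all detected, 12 of 12, with a median of 1.00. The complement chain C1qb was the highest at 4.88 ± 0.09, and Clec4f, the lectin receptor restricted to Kupffer cells in rodents, was at 4.65, 4.44 and 4.28. All 8 endothelial markers were detected with a median of -0.32, led by the growth factor receptor Kdr at 4.42, 4.27 and 4.49. Stellate and fibroblast markers had 12 of 13 detected with a median of -0.74, led by the collagens Col3a1 (3.13 ± 0.11) and Col1a2 (3.00 ± 0.06), and the retinol-storing enzyme Lrat was at 0.78 ± 0.17.

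Globin transcripts of red blood cells were bright, and markers of bile duct, T and B cells had low medians. Hba-a1 was at 8.46, 8.71 and 8.65, Hbb at 7.99 ± 0.08 and Hbb-b1 at 7.74 ± 0.13, and red cell genes held 1.30% ± 0.0865 of the signal of named genes. The other 4 of the 7 red cell markers were lower: the erythroid haem enzyme Alas2 was at 1.19 ± 0.23, the haemoglobin chaperone Ahsp at 0.46 ± 0.22, the anion exchanger Slc4a1 at -1.04 ± 0.54 and Hemgn at -4.73 ± 0.29. Bile duct markers had 5 of 8 detected (65.9% over all genes) with a median of -3.99. The ductal keratins were at -3.38 ± 0.27 (Krt19) and -5.17 ± 0.10 (Krt7). T and NK cell markers had 7 of 10 detected with a median of -3.24, led by Cd3d (-1.13 ± 0.14). The 3 B cell markers had a median of -3.97, with the transcription factor Pax5 (0.06 ± 0.29) above the others. Of 3 mesothelial markers 2 were detected, and the higher of them was the keratin gene Krt8 at 0.53. Neutrophil markers had 4 of 8 detected. Both S100a8 (-2.77, -1.24 and -2.16) and S100a9 (-2.10, -0.72 and -1.77) were highest in rat 2. Of 7 pancreas markers only the protease precursor Ctrb1 (-2.64 ± 0.11) was detected, and of 5 muscle markers Tnni2, Ckm and Acta1 were, at -1.45 ± 0.59, -1.84 ± 0.77 and -3.56 ± 0.20.

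**Figure D4:**
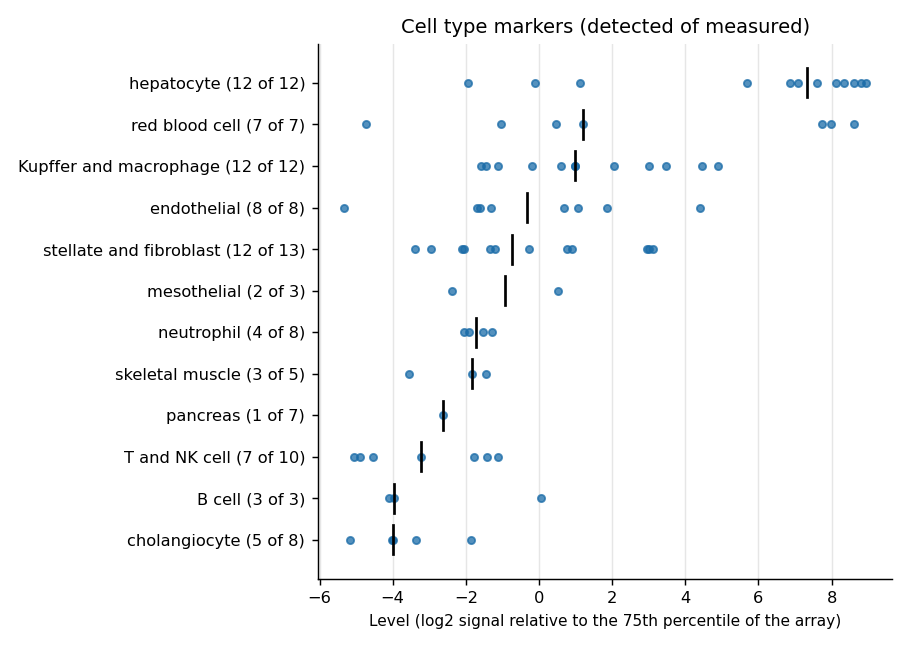
Mean level over 3 rats of each detected marker gene (x axis, log2 signal relative to the 75th percentile of the array) by cell type, with a black bar at the median and the number detected of those with a probe beside each name. Hepatocyte markers have a median of 7.34, and the other types have medians between 1.19 (red blood cell) and -3.99 (cholangiocyte).

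Genes whose liver level is known to differ between the sexes of adult rats were read beside the male label. The 11 genes of the male-biased list had a median of 6.61, with Obp3, Mup5, Rup2, Cyp3a2 and Mup4 above 7. The 9 genes of the female-biased list had a median of 0.02. In that list Cyp2c7 (7.76), Sult2a6 (4.60, 5.66 and 5.88) and Cyp2a1 (3.01 ± 0.25) were the highest, while Cyp2c12 (-0.40 ± 0.40) and A1bg were low. A1bg, a plasma glycoprotein gene, was at -4.56, -4.60 and -0.96, so rat 3 stood 12.4-fold above rat 2, the lowest. Female-biased Sult2a2 was also highest in rat 3, at -1.68, -1.44 and 0.03. Of 9 fetal liver genes with a probe, 5 were detected (65.9% over all genes), with a median of -2.39. Ahsg was the highest of them at 7.91. Afp, the main plasma protein before birth, was at 1.34, 0.90 and 1.54, Igf2 was at -2.39 ± 0.85, and Dlk1 was not detected.

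Growth hormone acts on liver through its receptor and Stat5b to raise Igf1. The receptor Ghr was at 3.00 ± 0.05 and the binding partners Igfbp3 and Igfals at 3.67 ± 0.05 and 2.66 ± 0.20. Against these stable members, 3 of the 12 genes of this axis differed by over 2-fold between rats (4.07% over all detected genes). Socs2, a feedback inhibitor of growth hormone signalling, was at -1.39, 0.61 and 0.81, with rat 1 far below the others. Igfbp2 was at 1.05, 3.80 and 1.79, with rat 2 the highest. Igfbp1, an insulin-repressed binding protein, was at 4.04, 4.12 and 2.67, with rat 3 the lowest.

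Most genes differed little between the 3 rats. The SD over rats had a median of 0.13 over the 9991 detected genes, its lower quartile was 0.0801 and 10% were above 0.357. It fell with brightness, from a median of 0.232 in the dimmest 10% of genes to 0.0975 in the brightest. Single spots of the same probe on the same array had a median SD of 0.0660 for the 1109 probes printed 10 times. The averages of these spots had a median SD of 0.124 between rats, a ratio of 1.87. For the 9820 probes printed 2 times the ratio was 1.85. An average carries less spot error than a single spot, so neither ratio gives the share of spot error in the SD between rats. An SD from 3 rats is itself imprecise, and RNA preparation and labelling are part of the difference between rats. The 5 genes of smallest SD were Zfyve1 (0.0013), Cfb (0.0027), Ints13, Hcst and Btbd10.

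A small set of genes differed strongly between rats. The highest and lowest rat differed by over 2-fold in 407 genes (4.07%), by over 8-fold in 12 genes, and 71 genes had an SD above 1. Any single pair of rats differed by over 2-fold in 210 genes (rats 1 and 2), 182 (rats 1 and 3) or 226 (rats 2 and 3). The largest SD was that of Mmd2, at -4.11, 1.44 and 1.49, followed by Ubd, a ubiquitin-like gene that interferon raises, at -0.77 ± 2.81 with rats 2 and 3 at 1.14 and 0.55. In both genes rat 1 lay far below the others, by 35.2-fold against rat 2 for Ubd. Bcl6, a transcriptional repressor that is higher in male than in female rodent liver, went the other way, at 3.51, -0.71 and -0.27.

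The other genes of largest SD had 1 rat apart or a spread over all 3. Gpx2, a gastrointestinal glutathione peroxidase, was at 0.60, -0.34 and -3.62. Cdh17, an intestinal and ductal cadherin, was at -3.29, -3.12 and 0.50, and Tubd1 at -3.18, -3.20 and -0.21, both with rat 3 the highest. Rnf182 (-4.93, -1.93 and -5.33) was highest in rat 2 and Nxnl2 (-4.80, -5.79 and -2.25) in rat 3. RT1-CE10, a gene of the class I histocompatibility region, was at -0.82, -1.77 and -4.35. A regulator and an enzyme in the lists also stood out: the liver factor Onecut1 was at -0.05, 2.72 and 2.57, and the serine dehydratase Sds at 0.93, 3.21 and 2.88, both with rat 1 the lowest.

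**Figure D5:**
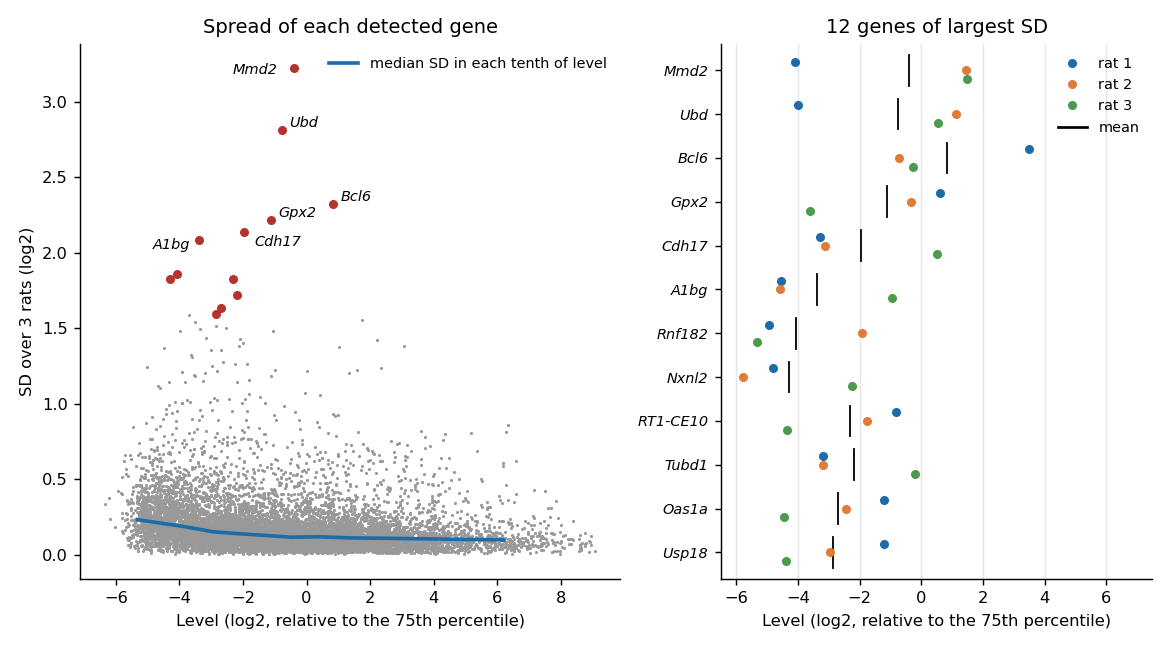
Left, SD over 3 rats (y axis, log2) against mean level (x axis, log2 signal relative to the 75th percentile of the array) for each detected gene, with the median SD over successive 10% steps of the ranking as a line and the 12 genes of largest SD as red points. Right, the level in each rat for those 12 genes, such as Mmd2 with rat 1 at -4.11 and the others above 1.

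Interferon response genes were the list with the most members past 2-fold between rats by count, 6 of 17 detected (4.07% over all detected genes). By share (35.3%), smaller lists exceeded it: skeletal muscle markers (66.7%), neutrophil markers (50%), lactate dehydrogenases (50%) and fetal liver genes (40%). Irf7, the transcription factor that amplifies the response, was at 1.46, 0.45 and -0.66. Isg15, a ubiquitin-like protein, was at 0.98, 0.06 and -1.15, and Mx1, a dynamin-like antiviral GTPase, at 0.66, -0.34 and -0.98. The antiviral synthetase Oas1a was at -1.21, -2.44 and -4.44, a 9.43-fold range, and the Isg15 protease Usp18 at -1.20, -2.98 and -4.39. Ifit3 was at -3.67, -4.10 and -5.51. In all 6 rat 1 was the highest and rat 3 the lowest, and this order was seen in 8 of the 17 genes of the list (16% over all detected genes). The other 11 members stayed within 2-fold, among them the brightest, Ifi27 (7.29, 6.92 and 7.00). Between rats 1 and 2, 4 of the 17 genes differed by over 2-fold (2.1% over all detected genes). Between rats 2 and 3, 5 did (2.26% over all detected genes). Ubd, which interferon also raises, was lowest in rat 1.

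Some further lists had members that differed over 2-fold between rats. Of 17 detected immediate early genes, which answer stimuli within minutes, 4 did so (4.07% over all detected genes), among them Egr1 at -1.68, -0.18 and -2.09. Between rats 2 and 3 all 4 differed by over 2-fold and were higher in rat 2 (2.26% over all detected genes). Of the 226 detected genes past 2-fold between these rats, 153 were higher in rat 2. Of 21 detected genes that answer fasting or stress hormones, 4 also did so, among them Igfbp1, the kinase gene Sgk1 (-1.60, -1.34 and -0.24) and the coactivator gene Ppargc1a (-4.24, -2.46 and -3.49).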

How the data were processed

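The 3 control arrays were analysed and the other 3 enter no value. The deposited intensity values are the processed signal of Agilent Feature Extraction 10.7.3.1, background-subtracted within each array per the file headers, as are the deposited marks of other kinds (well above background, saturated, outlier). The authors' deposited table holds a linear ratio, by comparison with the scanner values the processed signal over the 75th percentile of its array. Of its columns, 3 were used, as an alternative, and 3 were not. Control spots and the 458 to 485 outlier spots per array were left out, spots of a probe were averaged, and 14 probes were lost. Probes were named by transcript accession through RefSeq (GRCr8): 18004 of 30367 had 1 symbol. The arrays' design build is rn4, so no coordinates of probes are given.

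Calculations used Python 3.11.15, numpy 2.4.6 and pandas 2.3.3, were tested on simulated data, and involve no hypothesis test, since an exact sign permutation over 3 rats cannot go below 0.25. Named are the 30 highest genes, up to 8 highest, the lowest and the undetected members of each list, the 12 largest and 5 smallest SDs, and the 5 widest probe gaps. Outside this rule, A2m, Bhmt, Clock, Egr1, Fasn, Isg15, Lbp, Mup4l3, Mx1, Onecut1, Orm1, Per2, Ppargc1a, Ppia, Sds, Sgk1, Sod1 and Tat were chosen after their values were seen. The lists and the choice of samples were made with earlier results of these data known. The number of arrays limits precision. Some genes and sets are not reported here.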

Additional observations from a re-analysis of the deposited data

How the results depend on the processing

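No paired analysis was possible because 1 group was described and no test was made. Normexp used the median spot signal, as no mean signal was used here, a choice made after seeing the data. The span from the 1st to the 99th percentile, 12.4 on the log2 scale, was 10.1 with normexp, 12.4 (12.391) with the deposited table, 12.8 with detection on at least 2 arrays, 14.5 with no filter on dim probes and 12.4 to 12.6 without 1 rat. The median SD between rats of 0.13 became 0.0982 with normexp, 0.173 with no filter and 0.105 to 0.117 without 1 rat. The median gap between 2 probes of 1 gene, 1.85, became 1.38 with normexp and 1.77 with no filter. The 407 genes past 2-fold between rats became 186 with normexp, 586 with detection on at least 2 arrays and 1730 with no filter. Without 1 rat they were 190 to 236, which 2 rats lower by construction. Of the 12 genes of largest SD, 7 were shared with normexp, 6 with detection on at least 2 arrays, 4 with no filter and 4 to 10 without 1 rat. Median scaling, quantile normalization, keeping outlier spots and the median of a gene's probes moved the span, the median SD and the median gap by less than their spread between rats. Counts have no such spread: with these alternatives 387 to 410 genes were past 2-fold, and 11 of the 12 genes of largest SD were shared with each.

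Of the 30 highest genes, 29 were shared with normexp, 26 with the median of a gene's probes and 29 to 30 without 1 rat. The highest member of 45 families and sets was the same in 43 or more under every alternative. The exceptions were Ugt1a6 (normexp, and without rat 1) and Psmc5 (normexp), Cyp2c23 and Ces1d (median of probes), Aldh3a2 and Nr0b2 (without rat 2), and Cyp17a1 and Serpinc1 (without rat 3). The cause was not tested. Probes below background have only an upper bound, and levels of dim probes depend most on the background correction.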

Other observations

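Genes of cell division and of the circadian clock had medians below that of all detected genes (-0.89). Of 24 cell cycle genes, 21 were detected (65.9% over all genes) with a median of -2.04. Mcm7, a subunit of the replication helicase, was the highest at 0.60 ± 0.05, and the mitotic kinase Cdk1 was at -1.67 ± 0.39. Clock genes had 13 of 15 detected and a median of -1.93, led by the output factor Dbp (1.41 ± 0.13). The core activators Bmal1 and Clock were at 0.05 ± 0.08 and -2.32 ± 0.02. Per2, a repressor of the clock, was at -3.21, -5.22 and -3.94, the only clock gene past 2-fold between rats, with rat 2 the lowest.

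Cholesterol synthesis genes were all detected, 24 of 24, with a median of 0.45. Ebp (5.09 ± 0.10) and Hmgcs1 (4.91 ± 0.35) stood above the others, and the next, Fdft1, was at 2.24 ± 0.12. Fatty acid and triglyceride synthesis genes had 17 of 18 detected (65.9% over all genes) and a median of -0.34. The triglyceride enzyme Dgat2 (4.74 ± 0.02) was the highest, Fasn, the fatty acid synthase, was at -1.04 ± 0.21, and Acaca, an acetyl-CoA carboxylase, at -3.77 ± 0.09. Genes known to be higher in hepatocytes near the portal vein had a median of 4.82 over 12 detected genes, and genes known to be higher near the central vein had a median of 1.72 over 13. The glutamine synthetase gene Glul, of the last rows before the central vein, was at 1.72 ± 0.17.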
